A study of Mus musculus with 18 samples.

Results

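Rdh8, Rdh12, Rdh11, Rdh13, Rdh14, Retsat, Dhrs3 and Rbp3 are 8 genes of retinoid handling: 6 retinol dehydrogenases, a retinol saturase and the retinoid carrier of the space between photoreceptors and pigment epithelium. They were picked by symbol from the deposited gene tables, and all 8 were present among the 22558 genes there. The libraries are bulk RNA-seq of mouse retina and of retinal pigment epithelium with choroid (RPE/choroid), 18 in all, with 3 for each of 3 genotypes in each of 2 tissues. Every mouse was 30 days old and of a mixed background (129SV and C57BL/6). The groups were wild type, Abca4-/- (knockout) and Abca4L541P;A1038V/L541P;A1038V, a knock-in that carries the changes L541P and A1038V on both alleles. The comparison asks how transcripts of retinoid-processing genes stand when Abca4, the transporter that clears retinal from photoreceptor discs, is missing or altered. Whether each library is a separate animal is not stated in the labels, and p-values therefore reflect only how much these samples vary.

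In the visual cycle, light turns the cis-retinal bound to opsin into all-trans-retinal, which a photoreceptor must reduce to all-trans-retinol before the pigment epithelium can rebuild the cis form. The reduction is done by short-chain dehydrogenases: RDH8 in photoreceptor outer segments and RDH12 in inner segments, with broadly expressed relatives such as RDH11 and RDH14. RBP3, also called interphotoreceptor retinoid-binding protein, is secreted by photoreceptors and carries retinoids across the extracellular matrix between the cell layers. Abca4 works at the step before reduction, moving retinal to the side of the disc membrane where the dehydrogenases can reach it.

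Rdh8, Rdh12 and Rbp3 were all far higher in retina and followed similar orders over the RPE/choroid libraries, though not over the retinal ones, so the 250 bases before the annotated start of each are shown, from RefSeq (GRCm38.p6). The strand is + for all of them, and the positions are chr9:20818244-20818493 for Rdh8, chr12:79208663-79208912 for Rdh12 and chr14:33953753-33954002 for Rbp3. Capitals mark a match to TAATCC, a motif that photoreceptor homeobox factors such as CRX bind, on either strand.
Rdh8: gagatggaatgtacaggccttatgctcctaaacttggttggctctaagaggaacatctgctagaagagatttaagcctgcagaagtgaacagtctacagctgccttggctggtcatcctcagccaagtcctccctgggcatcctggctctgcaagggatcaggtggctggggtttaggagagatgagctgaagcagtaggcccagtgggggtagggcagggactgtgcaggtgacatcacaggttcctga
Rdh12: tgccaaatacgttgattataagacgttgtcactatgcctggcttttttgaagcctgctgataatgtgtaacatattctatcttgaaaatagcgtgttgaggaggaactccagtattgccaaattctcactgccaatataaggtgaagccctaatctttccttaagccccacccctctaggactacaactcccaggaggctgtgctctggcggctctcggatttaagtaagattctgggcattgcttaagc
Rbp3: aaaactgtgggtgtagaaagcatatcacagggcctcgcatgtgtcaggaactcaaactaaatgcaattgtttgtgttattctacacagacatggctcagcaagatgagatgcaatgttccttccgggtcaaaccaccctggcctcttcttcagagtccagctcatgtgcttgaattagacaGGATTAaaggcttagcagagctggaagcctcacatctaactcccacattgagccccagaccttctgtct
Of the 8 genes, 7 had at least 1 such window, 10 windows in all, and Rdh13 had none in the table. TAATCC was found in 1 of the 10 windows, that of Rbp3, as GGATTA at 69 to 64 bases before the start, so the motif itself lies on the other strand. The same motif was in 6.25% of all 32851 windows of this length. The E-box CACGTG, searched in the same way, was in 1 of the 10 windows, the second of Rdh11, at 230 to 225 and at 182 to 177 bases before the start, and in 6.02% of all windows. The Rdh8 and Rdh12 windows held neither set of letters.

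The depth was 11.6 to 23.6 M fragments assigned to genes per retinal library and 14.6 to 30.0 M per RPE/choroid library. Abca4 itself was 228 to 282 FPKM (fragments per kilobase of transcript per M fragments) in wild-type, 73.9 to 81.8 in knockout and 182 to 233 in knock-in retina. It was 35.4 to 59.5, 25.6 to 26.5 and 36.6 to 42.5 in the same genotypes of RPE/choroid. Of 18 rod markers, 17 were higher in every retinal than in every RPE/choroid library, and Cngb1 was under 1 FPKM in both tissues. All 19 pigment epithelium markers were higher in every RPE/choroid library. Lens transcripts varied widely within groups, from 61.0 to 15533 FPKM summed over 18 markers in retina, and their part in the results was not tested beyond the fit with a lens term given below. By Xist and Ddx3y, retina held 2 male and 1 female wild-type, 1 male and 2 female knockout and 3 female knock-in libraries, while RPE/choroid held 8 male libraries and 1 female, a knock-in. Libraries are named by the numbers 0 to 2 of the deposited tables, which are not tied to the numbers of the labels.

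In retina, Rbp3 was by far the most abundant of the 8 transcripts per length, followed by Rdh12, and the remaining dehydrogenases spanned a wide range below them. The FPKM scale is used for levels between genes because it divides by transcript length. Rbp3 stood at 881, 797 and 670 FPKM in the wild-type libraries (783 ± 106, SD, n = 3). Rdh12 was at 252, 244 and 343 FPKM (280 ± 55.1, n = 3), and every Rdh12 value lay below every Rbp3 value. Rdh8, the outer segment enzyme, came next with 84.3, 75.8 and 76.0 FPKM (78.7 ± 4.85, n = 3). Dhrs3, a dehydrogenase that reduces all-trans-retinal in many tissues, was at 79.3, 71.3 and 58.9 FPKM (69.8 ± 10.3, n = 3) and overlapped Rdh8 in wild type and knockout.

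Below these, Rdh11 was at 37.8 ± 2.03 FPKM, Rdh14 at 21.3 ± 0.383, Rdh13, a mitochondrial member of the family, at 10.4 ± 0.269, and Retsat, which saturates a double bond of all-trans-retinol, at 4.84 ± 1.23 (each SD, n = 3). From Rdh11 down, neighbouring genes in this order did not overlap in any retinal genotype. The order of means was the same in wild-type, knockout and knock-in retina. Over all 9 retinal libraries the largest value of a gene was 1.19 times the smallest for Rdh13 and 1.73 times for Dhrs3, the ends of the range among the 8.

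In RPE/choroid the order was different. Dhrs3 led in every genotype, with 63.6 to 82.9 FPKM over the 9 libraries. Rdh11 (24.4 to 32.0 FPKM) and Rdh14 (24.2 to 31.2 FPKM) followed and overlapped each other in wild type and knock-in. Retsat ranged from 15.5 to 19.1 FPKM and Rdh13 from 8.88 to 10.4 FPKM. Rdh8, Rdh12 and Rbp3 were low in 8 of the libraries and far higher in wild-type library 2.

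**Figure D1:**
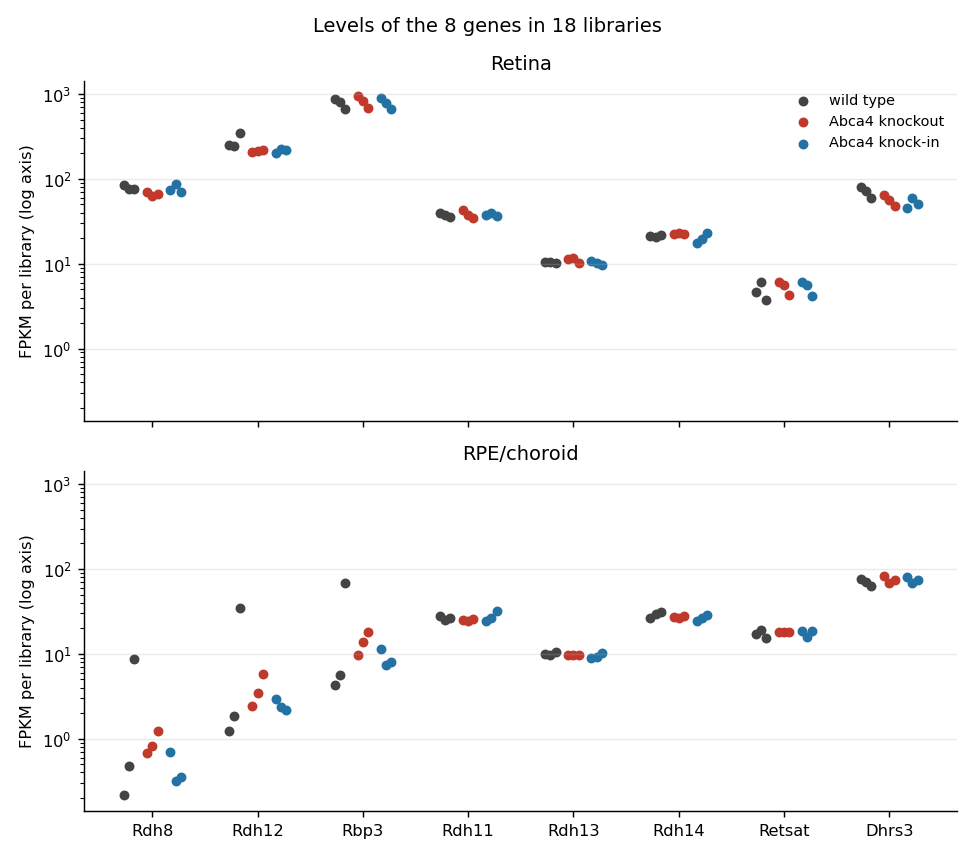
FPKM of each of the 8 genes (horizontal axis) in each library (points, log vertical axis), with retina above, RPE/choroid below and genotype by colour. The retinal levels run from Retsat (3.70 to 6.15 FPKM) to Rbp3 (665 to 937 FPKM), and in RPE/choroid Rdh8, Rdh12 and Rbp3 spread over more than a decade because 1 wild-type library lies above the rest.

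Between wild-type retina and wild-type RPE/choroid, Rdh8, Rdh12, Rbp3 and Rdh11 were higher in retina and Retsat and Rdh14 were higher in RPE/choroid. These are 6 of the 8 genes at an adjusted p under 0.05 (edgeR quasi-likelihood, Benjamini-Hochberg over 16222 genes), where 85.9% of all genes tested were called, so the share of the 8 was near the background. By direction, 4 of 8 were higher in retina against 41.9% of all genes, and 2 of 8 lower against 44%. DESeq2 called 4 of the 5 genes to which it gave an adjusted p, and limma called 6 of 8 (85.2% and 79% of all genes). All 8 genes passed the expression filter in every comparison. The median log2 difference was 0.26 over the 8 genes and -0.04 over all genes tested. Retsat was 3.70 to 6.14 FPKM in wild-type retina and 15.5 to 19.1 FPKM in wild-type RPE/choroid, with no overlap, a log2 difference of -1.98 (SE 0.137, edgeR adjusted p = 5.74e-10). Rdh11 differed by log2 0.47 (SE 0.0705, edgeR adjusted p = 9.71e-06) and Rdh14 by log2 -0.42 (SE 0.0715, edgeR adjusted p = 3.42e-05), both without overlap of the 3 against 3 libraries, as 80.3% of all genes were.

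The log2 differences of the photoreceptor genes were larger and less certain: 4.50 for Rdh8 (SE 0.768, edgeR adjusted p = 0.000104), 4.43 for Rdh12 (SE 0.937, adjusted p = 0.000624) and 4.78 for Rbp3 (SE 0.892, adjusted p = 0.000228). Without RPE/choroid wild-type library 2 they were 7.59 for Rdh8, 7.39 for Rdh12 and 7.20 for Rbp3, with SE of 0.267 to 0.352, and 7 of 8 genes were called (85.2% of all genes). Leaving out that library alone thus made each log2 value more than 1.5 times as large, and the fold differences grew by a larger factor. Rdh13 did not pass (log2 0.05, 95% interval -0.07 to 0.17, adjusted p = 0.427) and neither did Dhrs3 (log2 -0.18, adjusted p = 0.0551). Dhrs3 was called with DESeq2, with RLE scaling, without the expression filter, without retinal wild-type library 0 and without RPE/choroid wild-type library 2 (edgeR or DESeq2 adjusted p of 0.0345 to 0.0450).

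**Figure D2:**
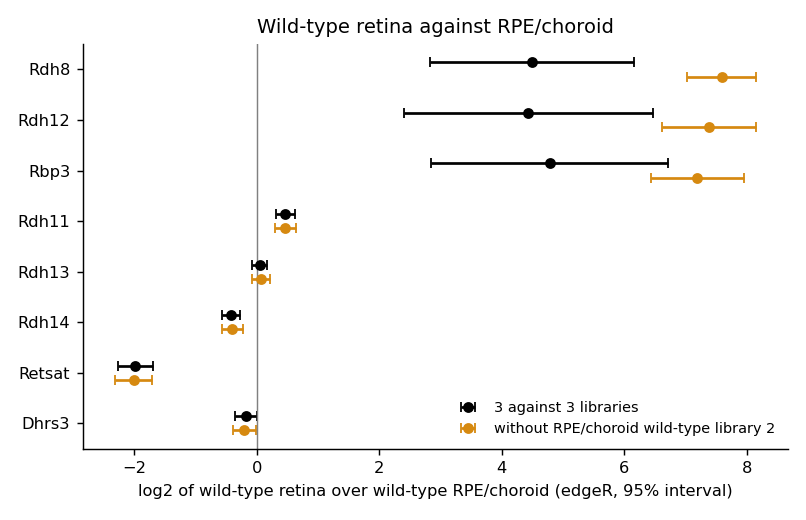
Log2 difference of wild-type retina over wild-type RPE/choroid for each gene (edgeR estimate with 95% interval), with all 3 RPE/choroid libraries in black and without library 2 in orange. Leaving out the library shifts Rdh8 from 4.50 to 7.59, Rdh12 from 4.43 to 7.39 and Rbp3 from 4.78 to 7.20, while the other genes stay in place.

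Rdh8, Rdh12 and Rbp3 followed the rod markers of each RPE/choroid library, and the other 5 genes did not. Rbp3 was at 4.34, 5.64 and 68.0 FPKM in wild type, at 9.68, 13.9 and 18.1 in knockout and at 11.3, 7.37 and 8.03 in knock-in RPE/choroid. The summed FPKM of the 18 rod markers, none of them among the 8 genes, was 181, 266 and 3287 in wild type, 332, 511 and 646 in knockout and 459, 282 and 305 in knock-in. Ranked by this sum, all 9 libraries had the same rank by Rbp3, 7 by Rdh12 and 6 by Rdh8. Only 0 to 2 libraries had the same rank by Rdh11, Rdh13, Rdh14, Retsat or Dhrs3. These ranks describe 9 libraries and are given without a test. In RPE/choroid, the rod markers Slc24a1 and Rom1 were at 24.9 to 44.0 and 34.1 to 163 FPKM. They thus made up more of the lowest sums than of the highest, which lowers shares of the sum in the libraries with the lowest sums.

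As a share of the rod marker sum, Rbp3 was 2.06 to 3.05% in the 9 retinal libraries and 2.07 to 2.92% in the 9 RPE/choroid libraries. Rdh12 was 0.670 to 1.06% in retina and 0.640 to 1.06% in RPE/choroid. Rdh8 was 0.198 to 0.273% in retina and 0.112 to 0.267% in RPE/choroid, where its lowest values rest on 5 to 9 fragments. Both tissues thus held Rbp3 and Rdh12 at overlapping ratios to rod transcripts. For Rdh8 only knockout library 0 (0.203%) and wild-type library 2 (0.267%) of RPE/choroid fell within the retinal range. Each other RPE/choroid library was at 0.192% or less, and the median of the 9 was 0.161%, against 0.233% in retina. Dhrs3 was 0.146 to 0.238% of the rod sum in retina and 1.93 to 42.0% in RPE/choroid, and Rdh11, Rdh13, Rdh14 and Retsat likewise had ranges in the tissues that did not overlap.

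RPE/choroid wild-type library 2 stood apart in this respect. Its median rod marker was at 9.70% of the wild-type retinal mean, against 0.373 to 2.00% in the other 8 RPE/choroid libraries, and 17 of the 18 rod markers had their highest RPE/choroid value there. Rdh8 was 25.6 times, Rdh12 22.5 times and Rbp3 13.6 times the mean of the other 2 wild-type libraries in it. The other 5 genes were 0.851 to 1.12 times that mean. Cone transcripts were also highest in wild-type library 2, at 130 FPKM summed over 11 markers. The sum was 16.6 to 34.7 FPKM in the other 8 RPE/choroid libraries. In bulk tissue, fewer cells of a type and less RNA per cell cannot be told apart, and the part of retinal tissue in the RPE/choroid libraries was not tested.

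**Figure D3:**
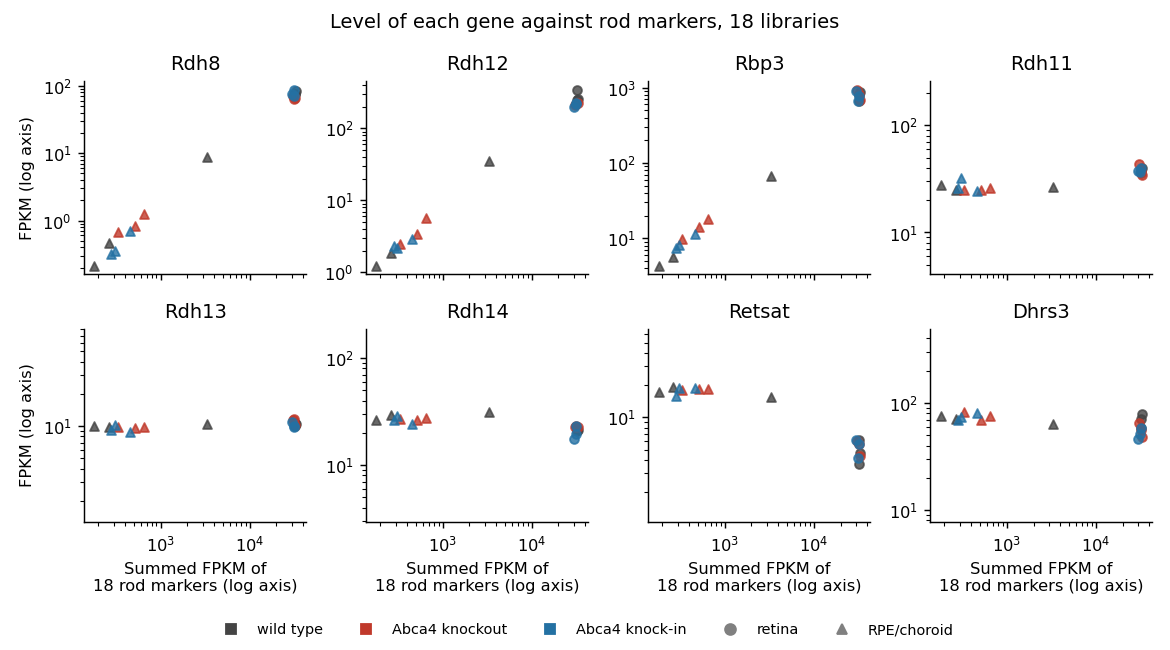
FPKM of each gene (vertical, log axis) against the summed FPKM of 18 rod markers (horizontal, log axis) in 18 libraries, with circles for retina, triangles for RPE/choroid and colours for genotype. Rdh8, Rdh12 and Rbp3 rise with the rod sum from RPE/choroid wild-type library 0 (181 FPKM) through wild-type library 2 (3287 FPKM) to retina, and the other 5 genes do not follow it within RPE/choroid.

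In retina, Rdh12 and Dhrs3 had lower values in both mutants than in wild type, and the differences did not pass the threshold over all genes. None of the 8 genes was called in knockout against wild type, in knock-in against wild type or in knock-in against knockout (edgeR adjusted p under 0.05), where 0.98%, 0.265% and 1.26% of the 14699 genes tested were called. At an unadjusted p under 0.05 the counts were 3 of 8 (Rdh8, Rdh12, Dhrs3), 2 of 8 (Rdh12, Dhrs3) and 1 of 8 (Rdh8), against 12.5%, 8.5% and 11.7% of all genes. DESeq2 called 1 of 8 in knockout (2.23% of all genes), 2 of 8 in knock-in (0.783%) and 0 in knock-in against knockout (2.21%). Limma on log2(FPKM + 1) called 0 of 8 in each comparison (0.197%, 0.0612% and 0.136% of all genes). The median log2 change of the 8 genes was 0.02 in knockout and -0.03 in knock-in, and that of all genes was -0.00 and 0.00.

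Rdh12, the inner segment enzyme, was at 252, 244 and 343 FPKM in wild-type, 209, 215 and 222 in knockout and 200, 224 and 219 in knock-in retina. All 6 mutant libraries lay below all 3 wild-type libraries, and wild-type library 2 was far above the other 2. In TMM-scaled CPM (counts per M counts), the scale of the test, the values were 409, 397 and 568 in wild type, 343, 351 and 355 in knockout and 335, 365 and 348 in knock-in, again without overlap. Groups without overlap and lower in the mutant were also seen for 9.19% of all genes in knockout and 7.99% in knock-in on that scale. Each share is for 1 mutant alone. Both mutants were set against the same 3 wild-type libraries, so the 2 comparisons are not independent. The log2 change was -0.39 in knockout (SE 0.115, 95% interval -0.64 to -0.14, edgeR adjusted p = 0.172) and -0.39 in knock-in (SE 0.114, 95% interval -0.64 to -0.14, edgeR adjusted p = 0.317). Without wild-type library 2 both changes were smaller, at log2 -0.21 (edgeR adjusted p = 0.159 in knockout and 0.306 in knock-in).

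The call on Rdh12 depended on the test. DESeq2 called it in knockout (adjusted p = 0.0181) and in knock-in (adjusted p = 0.0383). So did edgeR with a term for the sex of the library, at log2 -0.46 (adjusted p = 0.0161) in knockout and log2 -0.55 (adjusted p = 0.0470) in knock-in, each time as the 1 gene of the 8 (1% and 0.0952% of all genes). The 1 female wild-type library is library 2, the highest in Rdh12 (343 FPKM), and all 3 knock-in libraries are female. The fit with a sex term therefore leans on that library, and a sex term without it was not tested. With a term for lens content the changes were log2 -0.22 (edgeR adjusted p = 0.748) and log2 -0.28 (edgeR adjusted p = 0.786). Over the 16 alternatives of each comparison the adjusted p of Rdh12 ranged from 0.0161 to 0.748 in knockout and from 0.0383 to 0.874 in knock-in, always with the same sign. In the authors' deposited table the q-value of Rdh12 was 0.0841 for knockout and 0.0629 for knock-in, where that table called 3.44% and 2.11% of genes.

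Among the female retinal libraries, Rdh12 was at 343 FPKM in the 1 wild-type library, at 215 and 222 in knockout and at 200, 224 and 219 in knock-in. Among the male libraries it was at 252 and 244 in wild type and at 209 in the 1 knockout library. Each mutant library was below each wild-type library of its sex, and no test within a sex was run. Rod markers moved less: the median marker stood at 93.8% of wild type in both knockout and knock-in, and Rdh12 at 77.0% and 76.6%. The lowest rod marker, leaving out Cngb1, was at 90.7% in knockout and 89.2% in knock-in. The wild-type mean of Rdh12 includes library 2 (343 FPKM), without which its change was log2 -0.21 in each mutant. Of the 18 markers, 2 were below wild type without overlap in knockout (Pde6g and Rcvrn, 5.17% of all genes) and 1 above (Sag, 6.66%). In knock-in, 3 were below (Sag, Grk1 and Nr2e3, 3.61%) and 0 above.

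Dhrs3 was at 79.3, 71.3 and 58.9 FPKM in wild-type, 64.5, 56.0 and 48.0 in knockout and 45.8, 58.8 and 50.8 in knock-in retina. Knockout overlapped wild type on this scale, and the highest knock-in library lay just under the lowest wild-type one, as 3.61% of all genes did in knock-in without overlap. In TMM-scaled CPM the groups were further apart, at 93.5 to 103 in wild type, 75.9 to 86.5 in knockout and 63.1 to 81.6 in knock-in, with no overlap of either mutant with wild type. On that scale 9.19% of all genes were lower without overlap in knockout and 7.99% in knock-in. The log2 change was -0.29 in knockout (SE 0.0896, edgeR adjusted p = 0.178) and -0.39 in knock-in (SE 0.0894, edgeR adjusted p = 0.135). DESeq2 called the knock-in change (adjusted p = 0.0117) and not the knockout change (adjusted p = 0.0977), and the authors' deposited table gave a q-value of 0.0102 for knock-in and 0.122 for knockout. With a lens term the log2 changes were -0.16 (edgeR adjusted p = 0.752) in knockout and -0.31 (edgeR adjusted p = 0.397) in knock-in, and with a sex term -0.25 (edgeR adjusted p = 0.268) and -0.30 (edgeR adjusted p = 0.368). The 1 female wild-type library was at 58.9 FPKM, close to the highest of the 3 female knock-in libraries at 58.8, while the male wild-type libraries were at 79.3 and 71.3. In TMM-scaled CPM that female wild-type library was at 93.5 and the 3 knock-in libraries were at 63.1, 81.6 and 79.3. The male wild-type libraries were at 103 and 97.1 on that scale. Whether the mutants differ was tested directly, at log2 -0.10 for knock-in over knockout (edgeR adjusted p = 0.751).

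Rdh8 had lower values in knockout and not in knock-in. It was at 84.3, 75.8 and 76.0 FPKM in wild-type, 69.3, 63.0 and 66.7 in knockout and 74.4, 87.0 and 70.9 in knock-in retina. Knockout lay below wild type without overlap in FPKM, where 5.17% of all genes did. In TMM-scaled CPM the groups overlapped, with 92.6 to 111 in wild type and 77.3 to 95.8 in knockout. The log2 change was -0.24 in knockout (SE 0.0884, edgeR adjusted p = 0.283) and -0.01 in knock-in (edgeR adjusted p = 0.987). Knock-in over knockout was log2 0.23 (SE 0.0876, edgeR adjusted p = 0.303), so the mutants were not shown to differ. Knock-in lay above knockout without overlap in FPKM (5.69% of all genes). In TMM-scaled CPM the mutants overlapped, with 93.0 to 108 in knock-in and 77.3 to 95.8 in knockout.

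Rbp3 was close to wild type in both mutants, at 937, 825 and 694 FPKM in knockout and 893, 778 and 665 in knock-in retina. The library numbered 0 was the highest and that numbered 2 the lowest in each genotype. In TMM-scaled CPM the values were 3815, 3610 and 3802 in wild type, 4180, 3787 and 3883 in knockout and 4116, 3601 and 3661 in knock-in. There library 0 was again the highest in each genotype, and library 1 the lowest. The FPKM obtained per scaled count differed between retinal libraries by up to 1.31 times for Rbp3, 1.25 times for Rdh8, 1.23 times for Dhrs3 and 1.05 times for Rdh12, so spreads in FPKM and in counts are not the same. The Rbp3 change was log2 0.08 in knockout (95% interval -0.06 to 0.21) and 0.02 in knock-in (95% interval -0.12 to 0.15).

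The other 4 genes gave log2 changes in retina of 0.00 to 0.14 in knockout and -0.12 to 0.15 in knock-in, and none passed. The intervals were narrow for Rdh11 (log2 -0.14 to 0.15 in knockout, -0.15 to 0.14 in knock-in) and Rdh13 (-0.09 to 0.21 and -0.19 to 0.11). They were wide for Retsat (-0.19 to 0.47 and -0.17 to 0.48), the least abundant of the 8 in retina. Rdh14 was higher in knockout without overlap in FPKM (22.5 to 23.3 against 20.9 to 21.7 in wild type, with 6.66% of all genes higher without overlap), but overlapped in scaled counts (log2 0.05, edgeR adjusted p = 0.869).

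**Figure D4:**
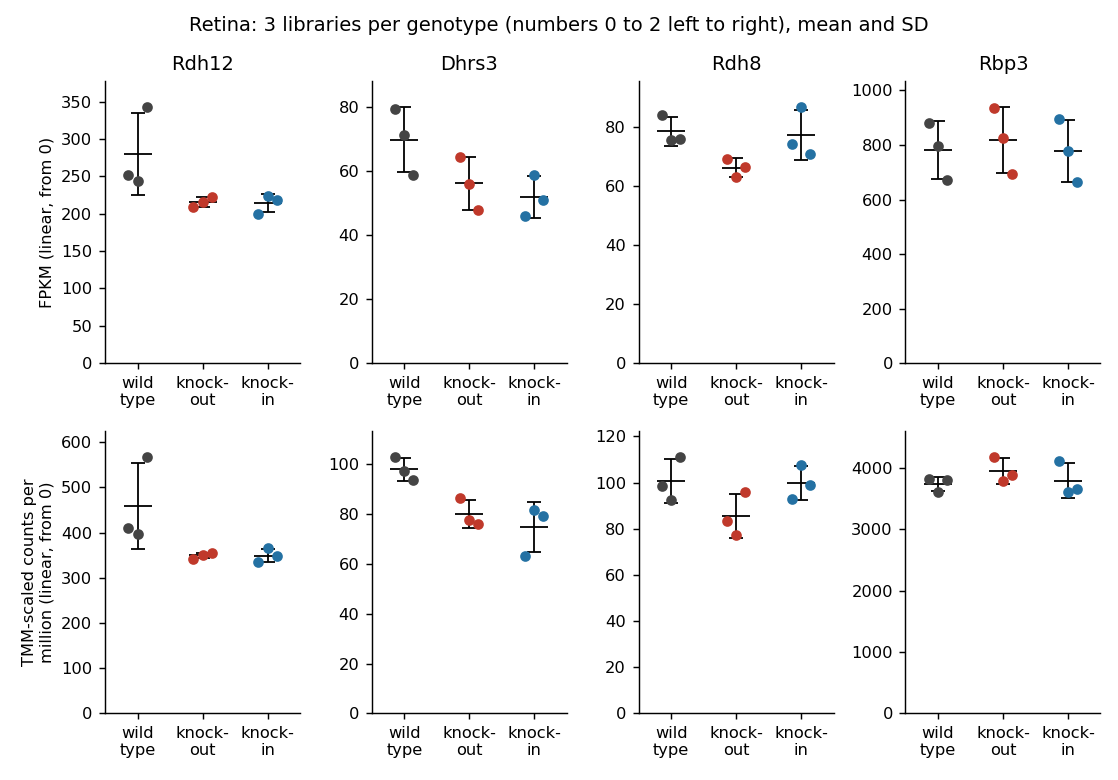
Rdh12, Dhrs3, Rdh8 and Rbp3 in retina by genotype, as FPKM (upper row) and as TMM-scaled CPM (lower row), with 1 point per library and the mean and SD of 3 in black. All mutant libraries of Rdh12 lie below wild type on both scales, those of Dhrs3 do so in scaled counts, and Rbp3 libraries 0 and 2 are further apart in FPKM (881 and 670 in wild type) than in scaled counts (3815 and 3802).

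In RPE/choroid, no genotype comparison called any of the 8 genes (edgeR adjusted p under 0.05), where 0.472% (knockout), 0.0647% (knock-in) and 0.453% (knock-in over knockout) of 15454 genes were called. At an unadjusted p under 0.05 the count was 0 of 8 in each, against 15.5%, 5.53% and 12.2% of all genes, and limma on log2(FPKM + 1) called 0 of 8 (0.11%, 0.0324% and 0.168%). DESeq2 called 0 of the 6 genes to which it gave an adjusted p, with none given for Rdh8 and Rdh12 (3.46%, 0.286% and 2.03% of all genes called). The median log2 change of the 8 genes was -0.10 in knockout and -0.11 in knock-in, against -0.01 and -0.00 over all genes.

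Rdh11, Rdh13, Rdh14, Retsat and Dhrs3 stayed close to wild type there, with log2 changes of -0.11 to 0.06 in knockout and -0.14 to 0.03 in knock-in. Their widest 95% interval was that of Retsat, log2 -0.16 to 0.26 in knockout and -0.23 to 0.19 in knock-in. In TMM-scaled CPM, Rdh11 was below wild type without overlap in knockout (37.2 to 37.8 against 38.6 to 41.4) and Rdh14 in knock-in (33.4 to 35.0 against 37.0 to 38.3). On that scale 11.5% and 4.56% of all genes were lower without overlap in the same comparisons. Neither change passed, at log2 -0.09 for Rdh11 (edgeR adjusted p = 0.603) and -0.14 for Rdh14 (edgeR adjusted p = 0.875).

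Rdh8, Rdh12 and Rbp3 gave large negative changes with large errors in RPE/choroid, and the sign changed when 1 wild-type library was left out. Rdh8 was at 0.214, 0.471 and 8.78 FPKM in wild type, 0.674, 0.821 and 1.24 in knockout and 0.701, 0.317 and 0.354 in knock-in. Rdh12 was at 1.24, 1.85 and 34.8 FPKM in wild type, 2.46, 3.47 and 5.74 in knockout and 2.94, 2.34 and 2.19 in knock-in. In both genes, as in Rbp3, every knockout library was above wild-type libraries 0 and 1 and below wild-type library 2. The log2 changes in knockout were -1.86 for Rdh8 (SE 1.24), -1.68 for Rdh12 (SE 1.22) and -0.94 for Rbp3 (SE 1.06), with edgeR adjusted p of 0.516, 0.557 and 0.708. In knock-in they were -2.87 (SE 1.35), -2.33 (SE 1.28) and -1.60 (SE 1.09), with edgeR adjusted p of 0.875, 0.875 and 0.882.

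Without wild-type library 2 the same changes turned positive. In knockout they were log2 1.34 for Rdh8, 1.27 for Rdh12 and 1.45 for Rbp3 (edgeR adjusted p = 0.136, 0.0793 and 0.0936), and in knock-in 0.33, 0.63 and 0.79 (edgeR adjusted p = 0.914, 0.713 and 0.649). With a term for the rod content of each library and all 9 libraries kept, they were -0.10 for Rdh8, -0.12 for Rdh12 and 0.25 for Rbp3 in knockout and -0.48, -0.15 and 0.13 in knock-in. Of 16 alternatives, Rbp3 had the other sign in 4 in knockout and 2 in knock-in. Rdh8 and Rdh12 had it in 1 for each mutant. None passed in any of these fits, and 2.97% of all genes in knockout and 0.0642% in knock-in did without wild-type library 2. The authors' deposited table called 3 of 8 genes, namely Rdh8 (q = 0.00645), Rdh12 (q = 0.00347) and Rbp3 (q = 0.00347), in knockout against wild type, where it called 2.9% of 14826 genes. It called the same 3 in knock-in (q = 0.00347 each), where it called 2.39% of 14800 genes, and Rbp3 alone in knock-in against knockout (q = 0.00347, 2.36% of 14732 genes).

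**Figure D5:**
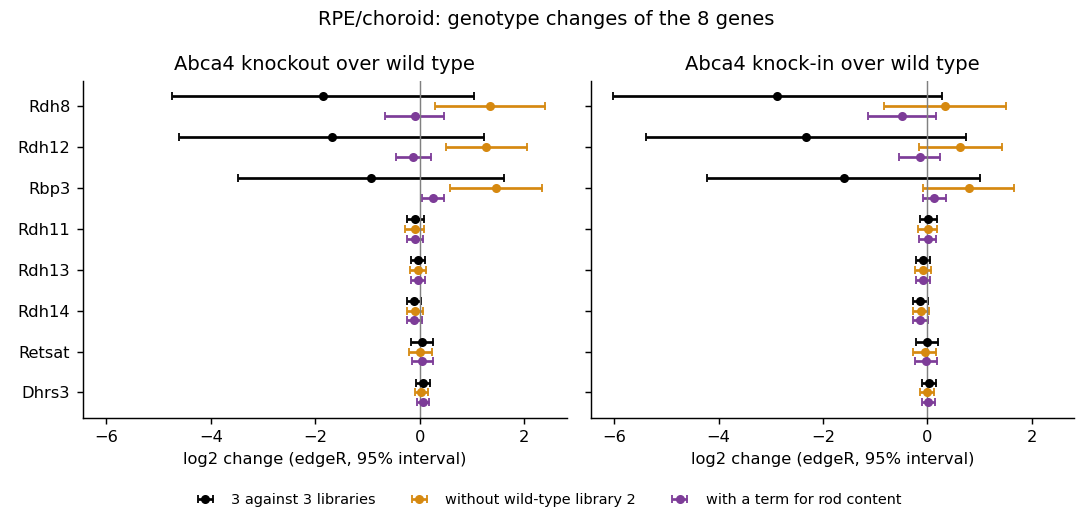
Log2 change of each gene in RPE/choroid of knockout (left) and knock-in (right) over wild type, as the edgeR estimate with its 95% interval, for all libraries (black), without wild-type library 2 (orange) and with a term for rod content (purple). For Rdh8, Rdh12 and Rbp3 the estimates move from -1.86, -1.68 and -0.94 to 1.34, 1.27 and 1.45 in knockout, and the other 5 genes lie between -0.14 and 0.06 with all libraries.

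Whether a genotype effect differs between the tissues was tested with an interaction term over the 18 libraries. None of the 8 genes was called for the knockout or the knock-in effect (edgeR adjusted p under 0.05, 0.136% and 0.0555% of 16222 genes called). At an unadjusted p under 0.05 Dhrs3 alone counted, 1 of 8 for each effect against 12.3% and 5.98% of all genes. The Dhrs3 effect was higher in RPE/choroid than in retina by log2 0.37 for knockout (SE 0.116, edgeR adjusted p = 0.218) and 0.41 for knock-in (SE 0.116, edgeR adjusted p = 0.536). Limma on log2(FPKM + 1) called 0 of 8 (0.185% and 0.0123% of genes). DESeq2 called 0 of the 5 genes to which it gave an adjusted p (1.89% and 0.23%). For Rdh12 the difference of the knockout effects was log2 -1.28 (SE 1.20, edgeR adjusted p = 0.707), and without RPE/choroid wild-type library 2 it was log2 1.68 (SE 0.388, edgeR adjusted p = 0.0490), a call with the opposite sign where 2.06% of genes were called.

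Other genes of the pathway were counted from lists of 18 visual cycle genes, 20 genes of retinoic acid metabolism and 28 further retinal or short-chain dehydrogenases. In knockout retina, 3 of the 18 visual cycle genes rose and 1 fell (edgeR adjusted p under 0.05, 0.98% of all genes called). Those that rose were Rpe65, the isomerase of the pigment epithelium (log2 1.48, adjusted p = 0.00222), Rgr (log2 1.44, adjusted p = 0.0178) and Lrat, which esterifies retinol (log2 1.12, adjusted p = 0.0288), and the one that fell was Abca4 (log2 -1.68, adjusted p = 4.32e-08). These 3 are pigment epithelium markers, and the marker list they belong to had 4 of 19 genes called higher in the same comparison, with its sum at 251 to 297 FPKM in knockout, 238 to 256 in knock-in and 188 to 207 in wild-type retina. The part of adhering pigment epithelium in this was not tested. In knock-in retina, 0 of 18 visual cycle genes and 0 of 19 pigment epithelium markers were called (0.265% of all genes).

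Of the tested genes on the retinoic acid and dehydrogenase lists, 0 of 14 and 0 of 15 were called in retina of either mutant (0.98% and 0.265% of all genes). In RPE/choroid, 0 of 18 visual cycle, 0 of 18 retinoic acid and 0 of 23 dehydrogenase genes were called in either mutant (0.472% and 0.0647% of all genes). Rdh5, the main dehydrogenase of the pigment epithelium for cis-retinol, was at 416 ± 32.7, 394 ± 60.7 and 414 ± 9.57 FPKM (SD, n = 3) in wild-type, knockout and knock-in RPE/choroid. Rdh10, a further retinol dehydrogenase, was at 365 ± 38.8, 349 ± 33.3 and 405 ± 104 FPKM. Both enzymes stood above every member of the 8 in RPE/choroid, where Dhrs3 reached at most 82.9 FPKM. Between the wild-type tissues, 13 of 18 visual cycle, 14 of 18 retinoic acid and 19 of 23 dehydrogenase genes were higher in RPE/choroid (44% of all genes), and 4, 2 and 1 were higher in retina.

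The genes whose log2 TMM-scaled CPM followed each member most closely over the 18 libraries were found among 14743 genes. For Rdh8 they were Crx, Impg1 and Pde6g (Pearson r of 0.998 each), for Rdh12 Slc17a7 and Prph2 (0.998 each) and for Rbp3 Rp1l1, Pdc and Syt2 (0.999 each). Crx is a photoreceptor transcription factor, and Impg1, Pde6g, Prph2, Rp1l1 and Pdc are best known from photoreceptors. For Retsat they were Rasef, Hs1bp3 and Hsd17b11 (0.993 to 0.994), and for Rdh11 Ppp1cc, Wrap53 and Phospho2 (0.977 to 0.980). For Rdh14 they were Sdhaf2, Psma6 and Cox6c (0.946 to 0.952), and for Dhrs3 Prune, Fbxo3 and Pgrmc1 (0.925 to 0.937). Rdh13 had the lowest values, with BC037034, Elk1 and Tmem74 (0.791 to 0.822). These values describe libraries that fall into 2 tissues and share their depth, and they carry no test.

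On the mm9 build of the deposited tables no member overlapped another annotated locus. Rdh12 (chr12:80309901-80323648) and Rdh11 (chr12:80276538-80292806) lie 17094 bases apart, and their levels over the tissues differed. Rdh12 was 90.3 times higher at the median of the 9 retinal than of the 9 RPE/choroid libraries, and Rdh11 was 1.45 times higher. Rdh8 (chr9:20622948-20630607) was 110 times higher and Rbp3 (chr14:34767208-34777402) 82.3 times. The genes with higher medians in RPE/choroid were Retsat (chr6:72548622-72557482), 3.28 times, Rdh14 (chr12:10397586-10402368), 1.25 times, and Dhrs3 (chr4:144482730-144517548), 1.25 times and with overlap of the tissues. Rdh13 (chr7:4377267-4397259) differed least, at 1.07 times higher in retina, also with overlap. Retsat ends 285 bases from Elmod3 and Rdh14 lies 605 bases from Nt5c1b, and the sources used here do not give the strand setting of the counting.

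The deposited transcript tables held 1 transcript for each gene except Dhrs3, which had 2. The 1713-base transcript of Dhrs3 carried 94.7 to 100% of the gene's FPKM in retina and 93.2 to 100% in RPE/choroid. The 1349-base transcript was at 0 to 3.15 FPKM in retina and 0 to 4.82 FPKM in RPE/choroid.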

How the data were processed

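Ribosomal RNA-depleted, stranded total RNA was sequenced as paired reads of 100 bases, per the labels' protocols. The submitters' processing notes name TopHat, Bowtie2, Cufflinks and the mm9 build, without versions. The deposited tables give an estimated count of fragments and an FPKM value per gene and library, and the deposited comparison tables give the authors' p-value and q-value per gene. The deposited transcript tables give transcript lengths, and FPKM per transcript made by the authors. Of the estimated counts, 98.5% in retina and 98.4% in RPE/choroid were whole numbers. The others were rounded.

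The counts were tested with edgeR 4.0.16 (R 4.3.3) by robust quasi-likelihood fits with TMM scaling and filterByExpr. Each tissue had a fit of 9 libraries, and the comparisons of tissues had a fit of 18. P-values were adjusted by Benjamini-Hochberg over all genes tested, with 0.05 as threshold. Alternatives were DESeq2 1.42.0, limma 3.58.1 on log2(FPKM + 1) and log2(FPKM + 0.1), RLE scaling, other filters, terms for sex, lens or rod content, fewer groups, a replicate block and leaving out each library. The scripts were tested on simulated data. The 18 pairs of libraries within groups held 0 identical pairs, with r of 0.985 to 0.998.

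The members and lists were chosen with earlier results of these data known. The 8 members were named in every comparison, with up to 4 called genes of each pathway list by smallest p and the 3 genes most like each member, of which 1 is not reported here. Rdh5, Rdh10 and the rod markers set against Rdh12 were named after their values were seen. Abca4, Xist and Ddx3y were named to check libraries. Promoter sequences are from RefSeq (GRCm38.p6), and protein sequences were not used here.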

Additional observations from a re-analysis of the deposited data

How the results depend on the processing

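In retina the count of members called was 0 with edgeR in each mutant against wild type. With DESeq2 it was 1 in knockout (Rdh12) and 2 in knock-in (Rdh12 and Dhrs3), and with a sex term it was 1 in each (Rdh12). For the tissue difference of the knockout effect the count ranged from 0 to 1 when each library was left out in turn, the 1 being Rdh12 at log2 1.68 (edgeR adjusted p = 0.0490) without RPE/choroid wild-type library 2, a reversed sign against the reported -1.28. Leaving out each library gave -1.82 to 1.68 there. The cause was not tested. Among values of single members under the alternatives, 10 passed where the reported value did not, and 1 reversed. The other 1189 kept their direction and side of the threshold, were called in neither fit or had no adjusted p. DESeq2 gave none for Rdh8, Rdh12 and Rbp3 between the wild-type tissues, where edgeR called them. Among 1093 values called in neither fit, 69 had the other sign. Genes called over the whole table depended on the tool: 144 with edgeR, 29 with limma on log2(FPKM + 1) and 327 with DESeq2 for knockout retina, 39, 9 and 115 for knock-in retina, and 185, 20 and 324 for knock-in over knockout. In RPE/choroid these were 73, 17 and 532 for knockout, 10, 5 and 44 for knock-in, and 70, 26 and 313 for knock-in over knockout. For the tissue difference they ran from 9 to 337 around 22 (knockout) and from 1 to 37 around 9 (knock-in). A replicate block on the table numbers changed the count of members called in none of the comparisons, which stayed at 0 in every genotype comparison. Deviations of same-numbered libraries correlated at -0.40 to 0.18 in retina and -0.11 to 0.28 in RPE/choroid. These values cover all genes together and cannot tell whether same-numbered libraries share a batch. Retinal Rbp3 in FPKM fell from library 0 to library 2 in every genotype. Rdh8 in RPE/choroid rests on 5 to 42 fragments outside wild-type library 2.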
